A study of Mus musculus with 34 samples.

Results

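The mitochondrially encoded complex I mRNAs are the 7 mitochondrial genes mt-Nd1, mt-Nd2, mt-Nd3, mt-Nd4l, mt-Nd4, mt-Nd5 and mt-Nd6, of 51368 genes in the deposited count table. They were chosen by name, and all 7 passed the filter on low counts in every fit. The study set several RNA-seq preparation methods side by side on tissue from 1 wild-type C57BL/6J mouse of 12 weeks, whose sex the labels give both ways. Liver RNA was prepared by polyA selection, which captures RNA by its tail, by rRNA pull-down, which removes rRNA on probes, or by rRNA digestion, which degrades probe-bound rRNA. Each of these methods was used in 9 libraries, 1 at each combination of 3 PCR ramp rates (slow, medium, fast) and 3 fragment lengths (short, medium, long), from 200 ng of RNA. Libraries with no selection (slow ramp, medium fragments, 20 ng) numbered 3 from liver in batch 1, 3 from liver in batch 2 and 1 from heart in batch 1, and all 34 libraries had 13 PCR cycles. PolyA libraries belonged to batch 1 and pull-down and digestion libraries to batch 2, and each method had its own Illumina stranded kit, so a method cannot be told apart from its kit, nor polyA selection from its batch when set against the other methods. A comparison with unselected libraries also spans the input difference. All libraries were technical preparations from that animal, so p-values measure the spread between preparations and not between animals.

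Complex I is the first enzyme of the respiratory chain. It takes electrons from NADH, passes them to ubiquinone and pumps protons across the inner mitochondrial membrane, and liver and heart both depend on it. Its membrane arm has a core made from mitochondrial genes: mt-Nd1 and mt-Nd3 sit near the ubiquinone site, mt-Nd2, mt-Nd4 and mt-Nd5 are the antiporter-like proton channels, and mt-Nd4l and mt-Nd6 are small subunits beside them. The other subunits come from nuclear genes. Mitochondrial DNA is transcribed from both strands into long precursors that are cut into single RNAs. Most mitochondrial mRNAs are read from the heavy strand and carry a short poly(A) tail, whereas mt-Nd6 is the only mRNA read from the light strand, and in human cells it is known to carry little or no tail.

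In the GENCODE M21 annotation of GRCm38 the 6 heavy-strand members lie on the plus strand of the mitochondrial chromosome: mt-Nd1 at chrM:2751-3707, mt-Nd2 at chrM:3914-4951, mt-Nd3 at chrM:9459-9806, mt-Nd4l at chrM:9877-10173, mt-Nd4 at chrM:10167-11544 and mt-Nd5 at chrM:11742-13565. mt-Nd6 lies on the minus strand at chrM:13552-14070. Each is a single protein-coding exon, and lengths run from 297 bases (mt-Nd4l) to 1824 bases (mt-Nd5). mt-Nd6 is 28.1% G and 5.97% C, whereas the heavy-strand members are 8.00% to 11.6% G and 22.1% to 30.0% C. The first 60 bases of mt-Nd6 and of its neighbour mt-Nd5 are shown because they carry this difference, with every G in capitals: mt-Nd6 has 12 and mt-Nd5 has 0.
mt-Nd5: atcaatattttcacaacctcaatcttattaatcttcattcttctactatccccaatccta
mt-Nd6: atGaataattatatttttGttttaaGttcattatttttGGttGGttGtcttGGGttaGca

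The 3′ ends are shown because polyA selection acts there. These are the last 33 annotated bases of each member, 5′ to 3′ on its own strand, with the stop codon in capitals. mt-Nd4 ends in a lone T, a stop codon that tail addition is known to complete.
mt-Nd1: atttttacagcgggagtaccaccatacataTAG
mt-Nd2: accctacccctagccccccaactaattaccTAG
mt-Nd3: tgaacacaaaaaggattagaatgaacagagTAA
mt-Nd4l: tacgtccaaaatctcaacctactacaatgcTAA
mt-Nd4: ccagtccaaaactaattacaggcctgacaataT
mt-Nd5: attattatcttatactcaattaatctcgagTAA
mt-Nd6: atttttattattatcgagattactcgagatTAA
The last 14 bases of mt-Nd5 and mt-Nd6 are the same stretch read from opposite strands, chrM:13552-13565, which reads TTAATCTCGAGTAA on the plus strand. mt-Nd4l and mt-Nd4 share ATGCTAA at chrM:10167-10173, the stop of one and the start of the other. The kits kept strand, but whether the counting used it is not given in the sources used here. Without strand, reads of mt-Nd6 cannot be told apart from those of heavy-strand RNA that crosses its locus.

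A chromosome 1 insertion of mitochondrial DNA holds near-identical copies of 3 members. Gm10222 matched mt-Nd4l at 294 of 294 bases, Gm28439 matched mt-Nd4 at 876 of 876, and Gm28438 matched mt-Nd3 at 344 of 345. The single mismatch, in capitals, lies at the third base.
mt-Nd3: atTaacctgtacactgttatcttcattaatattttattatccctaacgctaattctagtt
Gm28438: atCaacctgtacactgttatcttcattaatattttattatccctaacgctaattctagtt
Counts of mt-Nd3, mt-Nd4l and mt-Nd4 are therefore uncertain, since reads could be split with a copy. Gm28439 had 0 counts in all 34 libraries. Gm10222 had 0 in every polyA, pull-down and unselected liver library, but 61.8 to 211 counts per 100 of mt-Nd4l in the 9 digestion libraries. Gm28438 drew 216 counts per 100 of mt-Nd3 in the slow, long polyA library and at most 53.7 in any other library where mt-Nd3 was above 0. mt-Nd1, mt-Nd2, mt-Nd5 and mt-Nd6 have no copy among the 7 mitochondrial-like genes of that insertion.

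Total expected counts (estimates that need not be whole) were 19.9 to 21.7 M (M, 1e+06 counts) in unselected liver libraries, of which 76.1% to 77.9% fell on rRNA genes, 23.5 to 41.4 M after polyA selection and 20.0 to 30.2 M after digestion. Pull-down gave 23.4 to 39.2 M in 8 libraries but 1.13 M in the slow, long one. That library stands apart, so results that rest on it are also given without it. Levels are counts per 1e+06 counts outside rRNA genes (CPM). The nuclear gene Lars2 alone took 35.3% to 37.1% of that total in unselected liver and 24.0% in heart, but 0.0117% to 0.0220% after polyA selection, 0.00865% to 0.0365% after digestion and 0.00121% to 2.64% after pull-down. Every CPM value, marker sums included, keeps Lars2 in the total unless it is said to be left out. All 8 hepatocyte markers were above 0 in liver, with a summed level of 54830 to 56311 CPM in unselected and 77113 to 109379 CPM in selected libraries. The 8 cardiomyocyte markers summed to at most 1.06 CPM in any liver library. Among liver libraries endothelial markers (5) summed to 316 to 384 CPM after pull-down, against 174 to 204 CPM in unselected liver. Kupffer cell and macrophage markers (5) summed to 288 to 380.4 CPM, against 133 to 154 CPM. After polyA selection endothelial markers summed to 108 to 117 CPM, and 4 of 5 fell against unselected batch 1 (edgeR, median log2 fold change -1.47), where 24.8% of all genes fell. Of the Kupffer cell and macrophage markers 4 of 5 also fell there (median -0.48), and of the red blood cell markers 4 of 5 rose (median 0.37), where 26% of all genes rose. Red blood cell markers (5) summed to 122 to 131 CPM after digestion against 282 to 337 CPM in unselected liver, and 4 of 5 fell (median -5.70), where 9.78% of all genes fell. Of the endothelial markers 3 of 5 also fell after digestion (median -0.28), as did 3 of 5 Kupffer cell and macrophage markers (median -0.51). All these libraries are labelled as liver of the same mouse, and the part of these shifts in the results below was not tested.

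The 7 mRNAs held 1.14%, 1.18% and 1.22% of non-rRNA counts in unselected liver batch 1 and 1.20%, 1.42% and 1.33% in batch 2. Per length, mt-Nd4 stood at 2640 ± 235 CPM per kilobase, mt-Nd2 at 2560 ± 223, mt-Nd4l at 2452 ± 240.3 and mt-Nd1 at 2354 ± 234 (SD, n = 6). The SDs of these 4 overlap, but libraries shared their spread: in 6 of 6 libraries the order was mt-Nd4, mt-Nd2, mt-Nd4l, mt-Nd1, with mean steps of 80.1, 108 and 97.7 CPM per kilobase. mt-Nd5, the largest subunit gene, followed at 1585 ± 95.4 CPM per kilobase, below every library of the first 4. mt-Nd3 stood at 471 ± 89.5 and mt-Nd6 was lowest at 293 ± 20.2 CPM per kilobase. Spread relative to the mean was widest for mt-Nd3 among the 7, from 125 to 218 CPM, with Gm28438 above 0 in 3 of them. With that copy added, mt-Nd3 spanned 169.8 to 226 CPM.

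**Figure D1:**
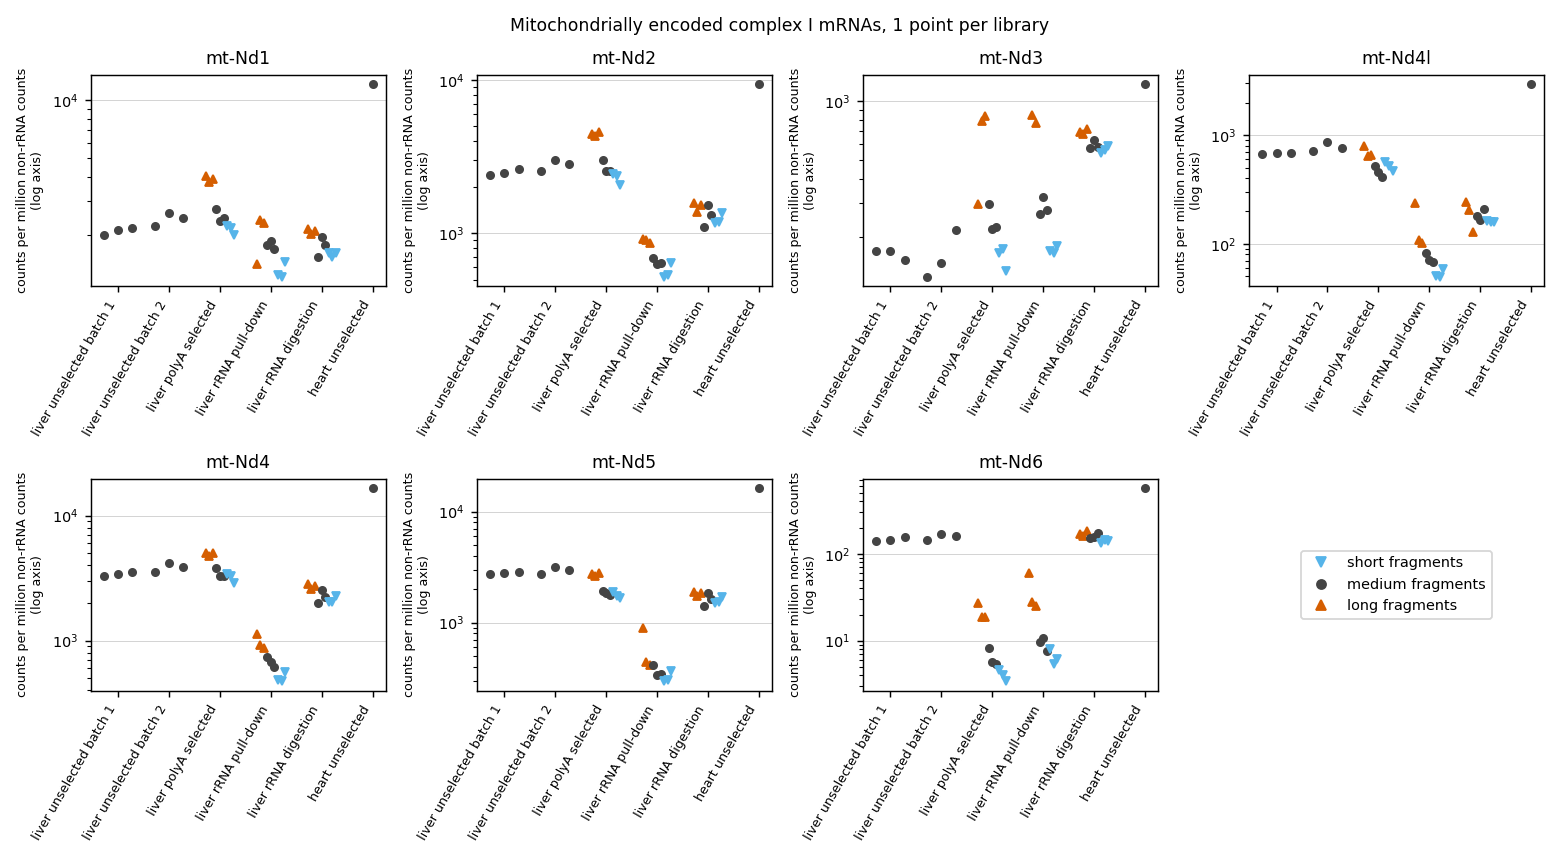
Level of each complex I mRNA in each library, in counts per 1e+06 non-rRNA counts (CPM) on a log axis, 1 point per library, with the marker showing fragment length. mt-Nd6 lies between 132 and 183 in unselected liver and digestion libraries, at 565 in heart, and between 3.44 and 60.7 in polyA and pull-down libraries; the slow, long pull-down library, at 0 for mt-Nd3, is not drawn there.

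Light-strand mt-Nd6 was far lower after polyA selection and after rRNA pull-down than in unselected liver. After digestion its place depended on whether Lars2 counted in the total. Unselected liver libraries had 141, 145 and 155 CPM of mt-Nd6 in batch 1 and 144, 168 and 159 CPM in batch 2. PolyA libraries had 3.44 CPM at the lowest, 5.62 at the median and 27.2 at the highest (100 to 635 counts), and all lay below every unselected library. Pull-down libraries had 5.38, 9.62 and 60.7 CPM (53 to 663 counts), also without overlap. The 60.7 was the low-depth library, and the highest of the other 8 was 28.1 CPM. Digestion libraries had 132, 156 and 183 CPM (2625 to 5104 counts), which spans the unselected range. Mean mt-Nd6 was 13.8-fold lower in polyA than in unselected batch 1 libraries. Against batch 2 it was 8.76-fold lower in pull-down libraries (12.5-fold without the low-depth one). With Lars2 left out of the total, polyA was 21.4-fold lower and pull-down 13.7-fold lower (19.7-fold without the low-depth library). On that scale unselected batch 2 libraries had 228 to 266 CPM of mt-Nd6 and digestion libraries 132 to 183, with no overlap and means 1.58-fold apart. The means of selected libraries pool 3 fragment lengths, while every unselected library had medium fragments. Among medium-fragment libraries mean mt-Nd6, with Lars2 kept, was 6.41 CPM after polyA selection against 147 in unselected batch 1. After pull-down it was 9.30 CPM against 157 in unselected batch 2.

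To compare mt-Nd6 with heavy-strand mRNAs apart from the library total, it was taken as a percent of the summed counts of the 13 mitochondrial mRNAs, of which 12 are heavy-strand. Unselected liver had 0.484%, 0.489% and 0.511% in batch 1 and 0.470%, 0.477% and 0.479% in batch 2. PolyA libraries had 0.0124%, 0.0181% and 0.0550% (lowest, median, highest), and pull-down libraries 0.0283%, 0.0379% and 0.305%, or at most 0.0798% without the low-depth library. Both sets lay wholly below the unselected libraries, by 0.469 and 0.402 percentage points on average. Digestion libraries had 0.387%, 0.422% and 0.467%, a mean 0.0518 points below, and also did not overlap. Each difference was lower in 9 of 9 libraries (two-sided exact permutation, p = 0.00909, the smallest that 9 against 3 allows, adjusted p = 0.0117 over 9 tests of this percent). These tests do not match on length, since the 9 libraries span 3 lengths and unselected libraries had medium fragments. With medium fragments the percent was 0.0172% to 0.0233% after polyA selection, 0.0295% to 0.0379% after pull-down and 0.403% to 0.464% after digestion.

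The small deficit after digestion depended on what mt-Nd6 was set against. Relative to the 7 complex I mRNAs alone, mt-Nd6 was 0.744 percentage points higher in digestion than in unselected batch 2 libraries (exact permutation, adjusted p = 0.0164), and relative to all non-rRNA counts the means differed by 1.7e-05 points (adjusted p = 1). With Lars2 also left out of that total, digestion minus unselected was -0.00904 points, lower in 9 of 9 libraries (exact permutation, adjusted p = 0.0117). With the chromosome 1 copies added to the mitochondrial total, the difference was -0.0059 points (adjusted p = 0.75). Set against its overlapping neighbour, mt-Nd6 had 5.18 to 5.39 counts per 100 of mt-Nd5 in unselected liver, 8.28 to 10.9 after digestion, 0.208 to 0.994 after polyA selection and 1.68 to 6.79 after pull-down, the last value in the low-depth library. The polyA deficit stayed below 0 under every denominator tried. The pull-down deficit lost its call relative to the 7 complex I mRNAs (-0.784 points, exact permutation, adjusted p = 0.0546), and kept it there without the low-depth library (-0.896, adjusted p = 0.0182).

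**Figure D2:**
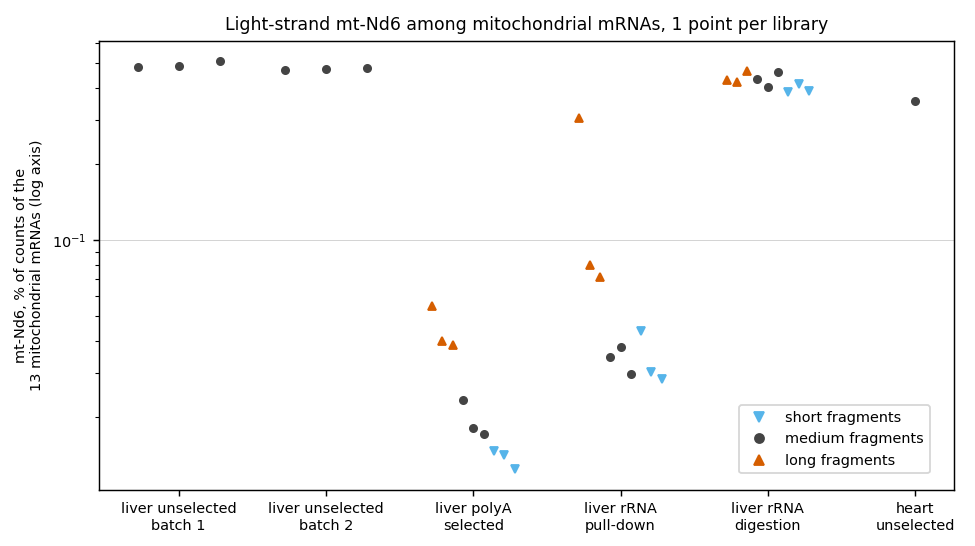
mt-Nd6 as a percent of the counts of the 13 mitochondrial mRNAs in each library, on a log axis, 1 point per library, with the marker showing fragment length. PolyA libraries lie between 0.0124% and 0.0550%, pull-down libraries between 0.0283% and 0.305%, and unselected liver libraries between 0.470% and 0.511%.

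Among selected libraries matched on ramp rate and length, mt-Nd6 was a larger percent of mitochondrial mRNA after digestion than after pull-down by 0.350 points and than after polyA selection by 0.398 points, each in 9 of 9 pairs. The first difference was 0.378 points without the low-depth library. PolyA libraries were also lower than pull-down libraries in 9 of 9 pairs, by 0.0476 points (two-sided exact sign-flip, p = 0.00391 for each, the smallest that 9 pairs allow, adjusted p = 0.00879). Leaving out the low-depth library gave -0.0222 points, polyA minus pull-down (adjusted p = 0.0136).

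The fits across all genes put every member on 1 scale. edgeR's quasi-likelihood test was used with TMM scaling, a calibration that sets most genes near no change, and a call is a Benjamini-Hochberg adjusted p under 0.05 over all genes. In the method comparisons all methods shared 1 length effect, while unselected libraries had medium fragments alone. The length effect differed between methods for several members, mt-Nd6 most (below), and the changes against unselected libraries do not account for this. After polyA selection 4 of the 7 members fell against unselected batch 1 and none rose, where 50.8% of 15483 genes were called and 24.8% fell. mt-Nd6 fell most, by 4.69 on the log2 scale (SE 0.33, adjusted p = 6.5e-13). mt-Nd5 fell by 0.96 (SE 0.16, adjusted p = 6.1e-06), mt-Nd4l by 0.73 (SE 0.20, adjusted p = 0.0031) and mt-Nd4 by 0.37 (SE 0.11, adjusted p = 0.0073). mt-Nd1 (-0.16), mt-Nd2 (-0.30, adjusted p = 0.051) and mt-Nd3 (-0.03) did not pass. mt-Nd2 was called with Lars2 left out (-0.31, adjusted p = 0.046), with DESeq2 size factors (-0.37, adjusted p = 0.022), without the low-depth pull-down library (-0.30, adjusted p = 0.049) and by DESeq2 (-0.37, adjusted p = 0.019). Library totals without TMM moved the median of all genes from 0.04 to 0.53, the calls from 4033 higher and 3836 lower to 7832 and 1930, and mt-Nd1, mt-Nd2, mt-Nd3 and mt-Nd4 to positive values (0.33, 0.19, 0.46 and 0.12). mt-Nd6 and mt-Nd5 stayed lower on that scale, at -4.20 and -0.47.

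After rRNA pull-down 5 of the 6 heavy-strand members fell, by different amounts, and mt-Nd3 did not pass. Against unselected batch 2, 6 of 7 fell and none rose, where 32.6% of genes were called and 15.8% fell. The log2 fold changes of the proton channel genes were -3.42 (SE 0.15) for mt-Nd5, -2.99 (SE 0.11) for mt-Nd4 and -2.61 (SE 0.13) for mt-Nd2. Those of the others were -3.73 (SE 0.20) for mt-Nd4l, -1.10 (SE 0.13) for mt-Nd1 and -4.30 (SE 0.34) for mt-Nd6, with edgeR adjusted p of 7.1e-08 or less for all 6. mt-Nd3 was at -0.01 (adjusted p = 0.99). In levels, mt-Nd5 had 2752, 3183 and 3004 CPM in unselected batch 2 and 298, 364 and 893 CPM (lowest, median, highest) after pull-down, with at most 441 outside the low-depth library. mt-Nd1 had 2209, 2604 and 2430 CPM against 1208, 1691 and 2378, which overlap. With Lars2 left out of the total mt-Nd1 did not overlap, at 3509 to 4122 CPM against at most 2379. Without the low-depth library the same 6 members were called, between -1.01 (mt-Nd1) and -4.37 (mt-Nd6), and mt-Nd3 was at 0.19. With library totals the median of all genes was 0.53 and the calls went from 2604 higher and 2447 lower to 8130 and 792, and the 6 members still fell, between -0.60 (mt-Nd1) and -3.81 (mt-Nd6), with mt-Nd3 at 0.48.

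rRNA digestion, set against the same unselected libraries as pull-down, gave calls for 5 of 7 members, all lower, where 13.8% of genes were called and 9.78% fell. mt-Nd4l fell by 2.86 (SE 0.20), mt-Nd2 by 1.95 (SE 0.13), mt-Nd5 by 1.66 (SE 0.16), mt-Nd4 by 1.55 (SE 0.11) and mt-Nd1 by 1.31 (SE 0.13) on the log2 scale, with edgeR adjusted p of 7.9e-09 or less. mt-Nd6 was at -0.87 (95% interval -1.51 to -0.24, adjusted p = 0.070) and mt-Nd3 at 0.77 (adjusted p = 0.33). In levels mt-Nd3 had 125, 147 and 218 CPM in unselected batch 2 and 539, 587 and 717 CPM (lowest, median, highest) after digestion, which do not overlap, nor do they with Lars2 left out of the total (199 to 340 against 539 to 717 CPM). mt-Nd3 was at 1.58 with library totals (adjusted p = 0.0046) and at 0.54 with Gm28438 added (adjusted p = 0.34). mt-Nd6 was called without the low-depth pull-down library, which shares the estimate of spread (-0.90, adjusted p = 0.045), and was at -0.07 with library totals, where the median of all genes was 0.78 and the calls went from 629 higher and 1514 lower to 11128 and 184. With Gm10222 added, mt-Nd4l was at -2.00 against unselected (adjusted p = 1.1e-09).

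**Figure D3:**
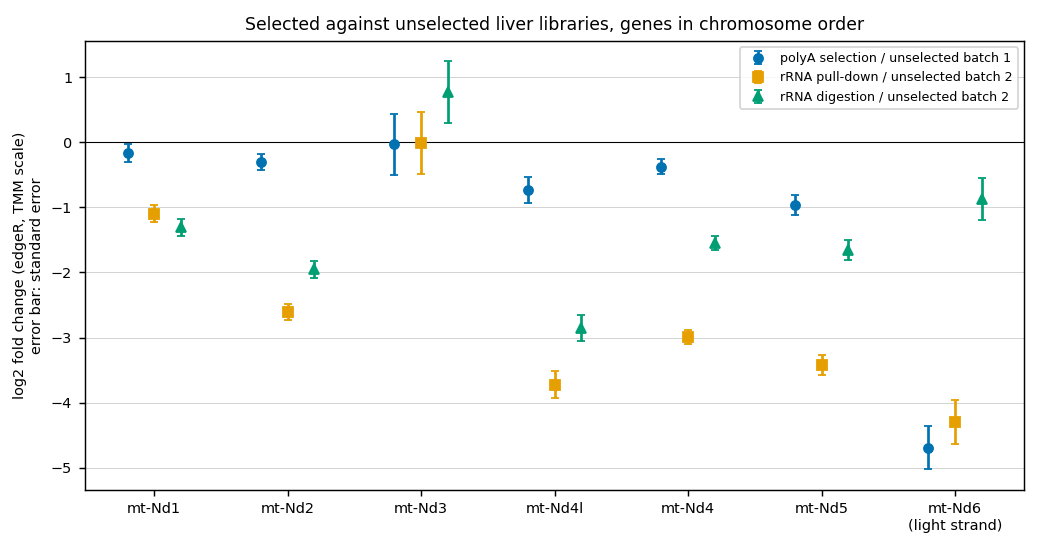
log2 fold change of each member after each selection method against the unselected liver libraries of its batch (edgeR, TMM scale, error bars are standard errors), in the order of the genes along the chromosome. mt-Nd6 stands at -4.69 after polyA selection and -4.30 after pull-down but at -0.87 after digestion, and mt-Nd3 is near 0 for polyA selection and pull-down.

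Between selection methods most members were called, as were most genes. Digestion gave higher levels than pull-down for 6 of 7 members and a lower one for mt-Nd1, where 70.5% of genes were called. The differences on the log2 scale were 3.43 (SE 0.22) for mt-Nd6, 1.77 (SE 0.10) for mt-Nd5, 1.45 (SE 0.07) for mt-Nd4, 0.87 (SE 0.13) for mt-Nd4l, 0.78 (SE 0.28) for mt-Nd3, 0.66 (SE 0.08) for mt-Nd2 and -0.21 (SE 0.08) for mt-Nd1. That of mt-Nd1 was 0.10 with library totals, where the median of all genes was 0.26, and it was not called there, with rRNA genes kept, with DESeq2 size factors, with no gene filter, without unselected batch 2 replicate 3 (adjusted p = 0.051) or by DESeq2. DESeq2 also did not call mt-Nd3 (0.92, adjusted p = 0.052). With Gm10222 added, that of mt-Nd4l was 1.82. All 7 were called in the same directions without the low-depth library, from -0.27 (mt-Nd1) to 3.46 (mt-Nd6). PolyA selection gave higher levels than pull-down for the 5 members mt-Nd1, mt-Nd2, mt-Nd4l, mt-Nd4 and mt-Nd5, by 0.71 to 2.78, where 72.7% of genes were called and 36.4% were higher, so that the 5 of 7 called are close to the share over all genes. mt-Nd3 (-0.03) and mt-Nd6 (-0.51, 95% interval -0.97 to -0.04, edgeR adjusted p = 0.056) did not pass, although DESeq2 called mt-Nd6 (-0.68, adjusted p = 0.0077). The same 5 were called without the low-depth library, at 0.64 (mt-Nd1) to 2.87 (mt-Nd4l), with mt-Nd3 at -0.18 and mt-Nd6 at -0.44.

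PolyA selection against digestion called all 7 members, where 80.7% of genes were called, with 5 higher and 2 lower in polyA libraries. mt-Nd6 fell by 3.93 (SE 0.22) and mt-Nd3 by 0.82 (SE 0.28) on the log2 scale, while mt-Nd4l stood 1.91 higher (SE 0.13), mt-Nd2 1.46 (SE 0.08), mt-Nd4 0.98 (SE 0.07), mt-Nd1 0.91 (SE 0.08) and mt-Nd5 0.59 (SE 0.10). With Gm10222 added, mt-Nd4l stood 0.96 higher. Among the members, the order per length therefore differed by method. After polyA selection mt-Nd2 (3038 ± 970 CPM per kilobase), mt-Nd1 (2965 ± 851) and mt-Nd4 (2800 ± 614) led. After pull-down without the low-depth library mt-Nd1 (1810 ± 462) and mt-Nd3 (1073 ± 786) led, and mt-Nd5 stood at 199 ± 29.3 CPM per kilobase. After digestion mt-Nd1 (1882 ± 258), mt-Nd3 (1777 ± 184) and mt-Nd4 (1716 ± 232) led (SD, n = 9, 8 and 9). Library by library, mt-Nd2 was above mt-Nd1 in 7 of 9 polyA libraries and mt-Nd1 above mt-Nd4 in 6 of 9. mt-Nd1 was above mt-Nd3 in 8 of 8 pull-down libraries and mt-Nd3 above mt-Nd2 in 5 of 8, with differences from -100.4 to 1556 CPM per kilobase. mt-Nd1 was above mt-Nd3 in 6 of 9 after digestion, where mt-Nd3 was above mt-Nd4 in 7 of 9. mt-Nd6 was the lowest member in all 3.

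Longer fragments came with higher levels of every member. Over the 27 selected libraries all 7 rose from short to long fragments, where 44.3% of 15225 genes were called and 22.1% rose. mt-Nd6 rose by 1.49 on the log2 scale (SE 0.24, edgeR adjusted p = 4.3e-05) and mt-Nd3 by 1.32 (SE 0.32, adjusted p = 0.0022). The other 5 rose by 0.56 (mt-Nd5), 0.64 (mt-Nd4l) and 0.66 (mt-Nd1, mt-Nd2 and mt-Nd4). mt-Nd6 also took a larger percent of mitochondrial mRNA with long than with short fragments in 9 of 9 pairs matched on method and ramp rate, by 0.0637 points (two-sided exact sign-flip, p = 0.00391, the smallest possible, adjusted p = 0.00879), and by 0.0390 points without the low-depth library (adjusted p = 0.0136). As a percent of the 7 complex I mRNAs that difference was 0.200 points (adjusted p = 0.0804).

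By method, the length difference of mt-Nd6 was large in polyA and pull-down libraries and small after digestion. PolyA libraries had 4.59, 4.01 and 3.44 CPM of mt-Nd6 with short fragments (slow, medium and fast ramp), 8.16, 5.62 and 5.44 with medium fragments and 27.2, 18.8 and 18.9 with long ones. The 3 lengths did not overlap. Pull-down libraries had 8.11, 5.38 and 6.11 CPM with short, 9.62, 10.6 and 7.62 with medium and 60.7, 28.1 and 24.9 with long fragments. Long lay above the rest, while short and medium overlapped. Digestion libraries had 132, 142 and 142 CPM with short, 153, 156 and 175 with medium and 169.8, 161 and 183 with long fragments, so that long lay above short and overlapped medium.

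Within polyA libraries all 7 members rose with length, where 55.3% of genes were called and 27.5% rose. mt-Nd6 rose by 2.49 (SE 0.07), mt-Nd3 by 2.03 (SE 0.30), mt-Nd2 by 1.01 (SE 0.06), mt-Nd1 by 0.92 (SE 0.04), mt-Nd4 by 0.69, mt-Nd5 by 0.67 and mt-Nd4l by 0.48 on the log2 scale. mt-Nd3 there had 166, 174 and 134 CPM with short and 295, 786 and 842 CPM with long fragments. The 295 was the library in which Gm28438 drew most counts, and with the copy added it was 933 CPM. Within pull-down libraries 4 members rose, where 6.27% of genes were called and 4.39% rose: mt-Nd6 by 2.28 (SE 0.20), mt-Nd4l by 1.34 (SE 0.23), mt-Nd4 by 0.96 (SE 0.12) and mt-Nd2 by 0.68 (SE 0.10). mt-Nd1 (0.64), mt-Nd5 (0.79) and mt-Nd3 (1.37) did not pass. Without the low-depth library all 7 rose, with mt-Nd3 at 2.21 and mt-Nd6 at 2.13. In that fit 5437 of 14345 genes were called and 2659 rose. Within digestion libraries 6 rose, by 0.20 (mt-Nd5) to 0.39 (mt-Nd1) with mt-Nd6 at 0.30 (SE 0.04), where 18.2% of genes were called and 8.76% rose, and mt-Nd4l at 0.25 (adjusted p = 0.25) did not pass.

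**Figure D4:**
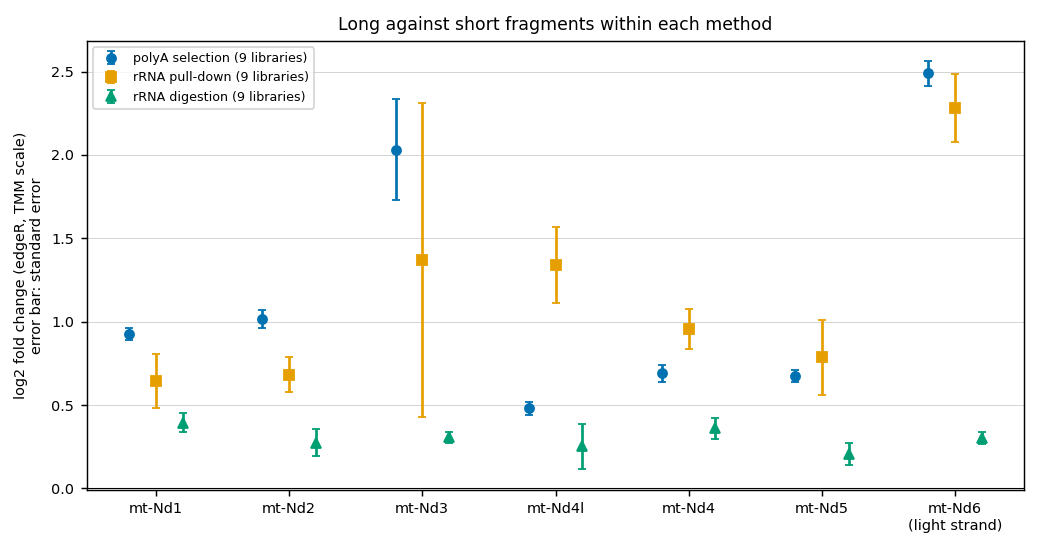
log2 fold change of each member from short to long fragments within each method (edgeR, TMM scale, 9 libraries a method, error bars are standard errors). Every value is above 0; mt-Nd6 reaches 2.49 in polyA and 2.28 in pull-down libraries but 0.30 after digestion.

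The difference of the length effect between methods was tested by an interaction in edgeR. The effect was larger in polyA than in digestion libraries for mt-Nd6 by 2.14 (SE 0.23, adjusted p = 1.1e-06), mt-Nd3 by 1.66 (SE 0.63, adjusted p = 0.047), mt-Nd2 by 0.70 (SE 0.15, adjusted p = 0.0012) and mt-Nd1 by 0.49 (SE 0.17, adjusted p = 0.031), where 33% of 15437 genes were called and 15.6% had a larger effect in polyA. mt-Nd5 (0.44), mt-Nd4 (0.30) and mt-Nd4l (0.20) did not pass. It was larger in pull-down than in digestion libraries for mt-Nd6 by 1.83 (SE 0.24, adjusted p = 3.7e-05), mt-Nd4l by 0.98 (SE 0.25, adjusted p = 0.011) and mt-Nd4 by 0.58 (SE 0.14, adjusted p = 0.0092), where 16.2% were called and 6.76% had a larger effect in pull-down. mt-Nd1 (0.26), mt-Nd2 (0.39), mt-Nd3 (1.39) and mt-Nd5 (0.58) did not pass. Without the low-depth library the called values were 1.75, 0.78 and 0.48, and mt-Nd1 (0.46) and mt-Nd3 (1.86) were called as well. In that setting 4129 of 15723 genes were called and 1616 had a larger effect in pull-down. Between polyA and pull-down libraries no member was called (edgeR, 4.89% of genes called), and mt-Nd4l, at -0.78, was alone in having an unadjusted p under 0.05. The difference for mt-Nd6 was 0.31 with a 95% interval from -0.27 to 0.89.

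Across the 27 selected libraries PCR ramp rate gave no called member, nor did batch in the fit of the 33 liver libraries. Fast against slow ramp called 0.0328% of genes in edgeR, and the members lay between -0.27 (mt-Nd4l) and 0.40 (mt-Nd3), none with an unadjusted p under 0.05. mt-Nd6 as a percent of mitochondrial mRNA was higher with the fast ramp in 3 of 9 pairs (mean difference -0.0232 points, exact sign-flip p = 0.672), and the mean difference was 0.00317 points without the low-depth library. The log2 ratio of mt-Nd6 to the 12 heavy-strand mRNAs differed by -0.44 between fast and slow ramp (adjusted p = 0.0352), and -0.23 without the low-depth library (adjusted p = 0.0703). Unselected batch 2 against batch 1 called 0% of 15483 genes in the fit of the 33 liver libraries (813 at an unadjusted p under 0.05, and 19 called by DESeq2), and the members lay between 0.01 and 0.23. A fit of the 6 unselected libraries alone did call members. These were mt-Nd1 (0.23), mt-Nd4l (0.21), mt-Nd4 (0.20) and mt-Nd2 (0.19), all higher in batch 2, among 36 of 10641 genes called. mt-Nd6 was 0.0191 points lower in batch 2 as a percent of mitochondrial mRNA, with no overlap (exact permutation, p = 0.1, the smallest that 3 against 3 allows).

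Heart, with 1 library in which Lars2 took 24.0% of non-rRNA counts, was compared with unselected liver batch 1 by values alone, with no test. Mitochondrial mRNAs held 15.9% of non-rRNA counts in heart and 2.92%, 2.97% and 3.03% in liver. All 7 members were higher in heart. mt-Nd3 was 7.43-fold higher, mt-Nd1 5.80-fold, mt-Nd5 5.78-fold, mt-Nd4 4.82-fold, mt-Nd4l 4.34-fold, mt-Nd6 3.84-fold and mt-Nd2 3.77-fold. The 95% exact Poisson interval of the heart count, which covers counting error only, gave 3.71 to 3.97 for mt-Nd6 and 5.74 to 5.81 for mt-Nd5. With Lars2 left out of the total all 7 were still higher in heart, by smaller ratios. These were 6.30 for mt-Nd3, 4.91 for mt-Nd1, 4.89 for mt-Nd5 and 4.08 for mt-Nd4. They were 3.68 for mt-Nd4l, 3.25 for mt-Nd6 (interval 3.14 to 3.36) and 3.19 for mt-Nd2. mt-Nd6 had 565 CPM in heart (3220 counts) and mt-Nd5 16190.2 CPM. As a percent of mitochondrial mRNA, mt-Nd6 was 0.356% in heart (interval 0.344% to 0.368%), below the 3 liver libraries and at 0.720 of their mean. mt-Nd2 was at 0.706 of the liver mean, mt-Nd4l at 0.813 and mt-Nd4 at 0.904, while mt-Nd5 (1.08), mt-Nd1 (1.09) and mt-Nd3 (1.39) were above it.

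Cardiomyocyte markers summed to 36144 CPM in the heart library, with Myl7, an atrial light chain gene, at 0, and to at most 0.626 CPM in liver batch 1. Hepatocyte markers summed to 248 CPM in heart. Endothelial markers summed to 471 CPM in heart and 184 to 204 in liver batch 1, and red blood cell markers to 646 and 323 to 337. Kupffer cell and macrophage markers summed to 67.4 and 141 to 154. In heart 2 of 5 endothelial and 2 of 5 Kupffer cell and macrophage markers were at or under 3 counts. Their part in the member ratios was not tested. In such bulk samples a different number of cells of a type and a different amount of RNA per cell cannot be told apart.

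**Figure D5:**
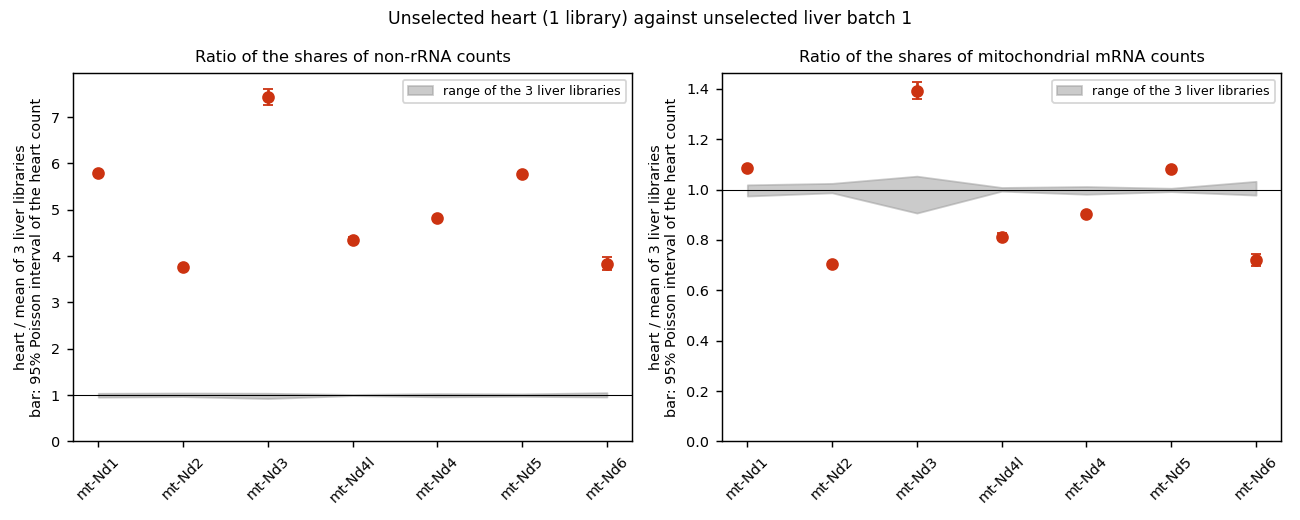
Ratio of the heart library to the mean of the 3 unselected liver libraries of batch 1 for each member, as shares of non-rRNA counts (left) and of mitochondrial mRNA counts (right), with the 95% Poisson interval of the heart count as bars and the range of the liver libraries shaded. On the left all 7 ratios lie between 3.77 and 7.43, and on the right mt-Nd2, mt-Nd4l, mt-Nd4 and mt-Nd6 lie between 0.706 and 0.904.

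Nuclear genes of the same complex were set beside the mitochondrial ones. Of 37 tested nuclear complex I subunits, 35 rose and 0 fell after polyA selection, where 26% of all genes rose (median log2 fold change 0.73, against 0.04 over all genes). After pull-down 34 rose and 1 fell, where 16.8% of all genes rose (0.52 against 0.04). The median over the 7 mitochondrial members was -0.37 and -2.99. Ndufa5, of the peripheral arm, rose by 1.14 and Ndufb10, of the membrane arm, by 1.02 after polyA selection. After pull-down Ndufb4 rose by 0.87 and Ndufa13 by 0.74, and Ndufab1, the mitochondrial acyl carrier protein, fell by 0.56. After digestion 1 rose and 22 fell, where 9.78% of all genes fell (median -0.37 against -0.02, and -1.55 for the members). Ndufa13 fell by 2.36 and Ndufa5 by 2.17 there, and Ndufa12 rose by 0.28. From short to long fragments 18 rose and 2 fell, where 22.1% of all genes rose, with Ndufb4 at 1.08, Ndufa1 at 0.90 and Ndufa10 at -0.18.

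Of 14 complex I assembly factors, 9 rose after polyA selection (Ndufaf2 by 1.23, Ndufaf8 by 0.93), 7 rose after pull-down (Ndufaf3 by 0.78, Ecsit by 0.63) and 6 fell after digestion (Ndufaf2 by 1.51, Ndufaf7 by 0.65), with none in the opposite direction. The same shares of all genes apply (26% and 16.8% higher, 9.78% lower). Of 18 genes of mitochondrial transcription and RNA handling, 8 rose after polyA selection, among them Tefm (0.64), the mitochondrial transcription elongation factor, and Fastk (0.62), whose mitochondrial form is known for stabilising mt-Nd6 mRNA. After pull-down 3 rose (Slirp by 0.82, Tfam by 0.39) and Tbrg4 fell by 0.33. After digestion 2 fell, Pnpt1 by 0.44 and Lrpprc, a heavy-strand mRNA stabiliser, by 0.28. The 3 of 18 after pull-down and 2 of 18 after digestion are close to the shares over all genes.

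Of the 6 other mitochondrial mRNAs, mt-Atp6 rose by 1.22 and mt-Co3 fell by 0.96 after polyA selection. mt-Atp8 and mt-Cytb fell after pull-down (by 1.83 and 1.51) and after digestion (by 1.75 and 1.29). mt-Atp6 and mt-Co3 have copies in the same chromosome 1 insertion. From short to long fragments 5 of these 6 rose, where 22.1% of all genes rose, with mt-Atp6 at 1.80 and mt-Atp8 at 1.47.

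Across the 33 liver libraries, which fall into sets by preparation method and span 1.13 to 41.4 M counts, the genes whose log2(CPM + 1) followed mt-Nd6 most closely were Nfia (Pearson r = 0.910), F830016B08Rik (0.894), 9130230L23Rik (0.890), Sox5 (0.890) and Zfhx4 (0.890). No other member was near the top: mt-Nd5 had r = 0.487, mt-Nd4 0.342 and mt-Nd1 -0.034. The summed heavy-strand members were followed most closely by mt-Cytb (0.960), Taf15 (0.916), Eif5b (0.913), Gm10925 (0.911) and Hnrnpul2 (0.901), and had r = 0.300 with mt-Nd6. These values describe the libraries and carry no test.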

How the data were processed

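The authors deposited expected counts per gene for 34 libraries. Per the submitters' processing notes, Salmon 1.9.0, UMI-tools 1.1.1, R 4.4.0 and GRCm38 were involved, with no role or order given. Whether the counting used strand or removed duplicates is not given in the sources used here. GENCODE M21 annotation (GRCm38) matched 50896 of 51368 identifiers. The other 472 took 0.0452% of a library's counts or less. The 308 rRNA-type genes were left out of totals and tests, no value column was unused, and the 22 mitochondrial tRNA genes had 0 counts.

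Counts were rounded and tested with edgeR 4.0.16 (R 4.3.3, limma 3.58.1; quasi-likelihood, TMM, filterByExpr, Benjamini-Hochberg over all genes tested). Method and batch comparisons used the 33 liver libraries with ramp rate and length as covariates, length and ramp comparisons the 27 selected ones with method and the other factor as covariates, and within-method comparisons 9 libraries. The standard error was approximated as the log2 fold change divided by the square root of F. DESeq2 1.42.0 was an alternative, and the code was tested on simulated data. Replicate numbers exist only for unselected liver libraries. Same-numbered libraries of the 2 batches did not deviate together (correlations 0.0116, -0.0724 and -0.135), so no pairing was used. Replicates differed by more than sampling noise (chi-square per degree of freedom 1.26 to 1.98). Intervals of edgeR values rest on the standard error, and Poisson intervals of the heart counts cover counting error only.

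All 7 members are given in every comparison, by value or within a stated range. Of the other lists (nuclear complex I subunits, assembly factors, other mitochondrial mRNAs, mitochondrial RNA handling) the called genes with the largest changes are named. Cell type markers are given as summed levels and counts. The members and lists were chosen with earlier results of these data known.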

Additional observations from a re-analysis of the deposited data

Results flagged for a closer look

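The slow-ramp, long-fragment pull-down library, with 1.13 M counts in all (M, 1e+06), was far from the other 8 pull-down libraries in 4 of the values examined, where chance gives about 1 such flag in 20 groups. Its mt-Nd6 share was 0.00607% of non-rRNA counts and 0.305% of mitochondrial mRNA counts, from 53 counts of mt-Nd6. Its mt-Nd5 share was 0.0893% and its mt-Nd4l share 0.0236% of non-rRNA counts. In all 4 it was the highest of the 9, and the mitochondrial mRNA percentages of mt-Nd6 lay at or under 0.0798% in the others. Its mt-Nd3 count was 0, with 232 counts on the chromosome 1 copy Gm28438.

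The change from short to long fragments differed between methods by edgeR's interaction test. Between polyA and digestion libraries the difference on the log2 scale was 0.49 for mt-Nd1, 0.70 for mt-Nd2, 1.66 for mt-Nd3 and 2.14 for mt-Nd6. Between pull-down and digestion libraries it was 0.58 for mt-Nd4, 0.98 for mt-Nd4l and 1.83 for mt-Nd6. mt-Nd6 was called in both. Without the low-depth pull-down library mt-Nd1 (0.46) and mt-Nd3 (1.86) were called between pull-down and digestion as well. There 4129 of 15723 genes were called, against 2495 of 15437 with that library.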

How the results depend on the processing

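Of the alternatives to the 105 log2 fold changes of the members, 1129 kept direction and side of the threshold, 53 lost the call, 33 gained it and 24 changed sign. For the percent of mt-Nd6, 86 kept both, 4 lost the call, 1 gained it and 6 changed sign. Setting mt-Nd6 against the 7 members gave -0.784 points for pull-down against unselected (adjusted p = 0.0546), 0.744 for digestion against unselected, with and without the low-depth pull-down library, and 0.200 for long against short fragments, or 0.0986 without that library. Digestion against unselected was 1.7e-05 against all non-rRNA counts and -0.0059 with the copies added to the denominator, and batch 2 against batch 1 was 0.000963 against non-rRNA counts and 0.00188 with Lars2 left out of them. Fast against slow ramp was -0.44 as a log2 ratio and 0.00317 points without the low-depth library. The cause of these changes was not tested. The 7-member denominator and the log2 ratio without that library, the total without Lars2 and the fit of the 6 unselected libraries alone were added after seeing the data.

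With mitochondrial mRNA as denominator the heart ratios of mt-Nd2, mt-Nd4l, mt-Nd4 and mt-Nd6 were 0.706, 0.813, 0.904 and 0.720. That of mt-Nd6 was 4.37 with all counts and 3.25 with non-rRNA counts without Lars2.

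A test against a 2-fold minimum, a stricter question, called 1 member for polyA against unselected (mt-Nd6), where 956 of 15483 genes were called. It called 3 members for digestion against pull-down (890 of 15483 genes) and 3 for polyA against digestion (2440 of 15483). For long against short fragments it called 0 (107 of 15225 genes). It called 1 within polyA (112 of 14603 genes) and 1 within pull-down (54 of 14426), mt-Nd6 in both, and 0 within digestion (93 of 15196). Over the 3 differences of length effects together it called 1 (mt-Nd6, polyA against digestion, where 22 of 15437 genes were called). For the methods against unselected it called 98 to 956 of 15483 genes, against 2143 to 7869 without the minimum. Without the low-depth library 7 members and 5437 of 14345 genes were called within pull-down, against 4 members and 905 of 14426 genes with it. Library totals called 11312 genes for digestion and 8922 for pull-down against unselected, against 2143 and 5051. DESeq2 called 988 genes within digestion (2768 in edgeR) and 1575 for the length effect of polyA against pull-down (755).

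Leaving out each unselected library in turn kept the percent of mt-Nd6 at -0.474 to -0.460 for polyA, -0.405 to -0.400 for pull-down, -0.0544 to -0.0501 for digestion and -0.0245 to -0.0109 between batches. Members called stayed at 4, 6, 5 and 0, and at 6 to 7 for digestion against pull-down. Without unselected batch 2 replicate 2, digestion against unselected called 1347 genes. Without replicate 2 of either batch, batch 2 against batch 1 called 2.

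The replicate block for batch 2 against batch 1 called 4 members and 80 of 10963 genes, against 4 members and 36 of 10641 genes in the same 6 libraries without it. Same-numbered libraries shared only a number. mt-Nd3 was at -0.0027 with the block.

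Sign changes were mostly in mt-Nd3. For polyA against unselected, library totals gave 0.33 (mt-Nd1), 0.19 (mt-Nd2), 0.46 (mt-Nd3) and 0.12 (mt-Nd4), and mt-Nd3 was 0.022 with no filter, 0.20 with copies added and 0.016 without the low-depth library. For pull-down against unselected mt-Nd3 was 0.48 with library totals, 0.041 with no filter, 0.19 without the low-depth library and -0.14 to 0.26 on leaving out 1 replicate. mt-Nd1 was 0.10 for digestion against pull-down with library totals. mt-Nd3 for polyA against pull-down was 0.064 with copies added and 0.025 by DESeq2. Between batches mt-Nd3 was -0.0056 with rRNA kept, -0.00011 without Lars2, -0.0068 with library totals, -0.0091 with no filter and -0.25 to 0.16 on leaving out 1 replicate. Without the low-depth library mt-Nd5 was 0.0049 for fast against slow ramp, and the length effect of polyA against pull-down was -0.16 for mt-Nd3 and 0.23 for mt-Nd5.

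Depth limits mt-Nd6, with 53 to 663 counts after pull-down and 100 to 635 after polyA selection. mt-Nd3 had 0 counts in the low-depth library, where its copy Gm28438 had 232 and mt-Nd4l had 206.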
